A study of Mus musculus with 3 samples.

Results

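The genes described here had their lowest level in central memory CD8+ T cells and higher levels in both naive and effector memory cells. Levels are CPM, the reads of a gene divided by all reads counted in the library and scaled by 1000000. A gene was taken when it had at least 5 CPM in naive and in effector memory cells and when central memory stood at least 2-fold below both. By this rule 59 of 8548 genes at 5 CPM in both libraries qualified (0.690%), and 19 were left out by name or symbol family, which leaves 40 genes. The same form of rule, with the same names left out, took 753 of 9001 genes for a lowest level in naive cells (8.47% before names were left out) and 910 of 8736 for a lowest level in effector memory cells (11.0% before names were left out). The values that chose the 40 genes are the levels in all 3 libraries, so their differences from central memory are given as descriptions and carry no test.

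The series measured RNA by sequencing in CD8+ T cells sorted from the spleens of wild-type (WT), untreated mice. The 3 groups, with 1 library each, were cells labelled naive, central memory and effector memory. The sources used here do not give the surface markers of the sort, the strain, sex and age of the mice or how many mice a library holds. With single libraries there is no replicate check of any difference and no test was made. The intervals are 95% exact counting intervals of a ratio and cover counting error only. In bulk RNA, fewer cells expressing a gene and less RNA per cell cannot be told apart.

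Naive T cells circulate through lymphoid organs and wait for the antigen that their receptor recognises. Central memory T cells are antigen-experienced cells that keep the receptors for lymph node entry and divide again on a new encounter, and effector memory T cells are antigen-experienced cells that patrol blood and tissues. Many genes of T cell differentiation are ordered from naive through central memory to effector memory. A level that is lowest in the middle of that series is the pattern described here.

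The library totals were 26876909, 35846315 and 33087462 counts in the order naive, central memory, effector memory, which is the order of all triples of values below. Cd8a stood at 1934, 1062 and 395 CPM, and Cd3e at 408, 418 and 323 CPM. Of the markers of the subsets, the lymph node homing receptor gene Ccr7 stood at 386, 339 and 30.8 CPM and the memory marker Cd44 at 3.05, 45.7 and 109 CPM. Markers of other spleen cell types were taken from 11 lists. Of 138 such markers in the table, 0 were among the 40 genes. The summed level was lowest in central memory for 2 of the 11 lists, neutrophil and red blood cell markers, and neither of these reached more than 1.67 CPM in any library. B cell markers summed to 72.4, 9.85 and 3.42 CPM. Their defining member Ms4a1 had 95 counts in naive and 0 in both memory libraries. NK cell markers summed to 89.9, 322 and 1143 CPM. CD4 and regulatory T cell markers summed to 112, 321 and 1042 CPM and plasma cell markers to 44.8, 94.96 and 293 CPM. These sums were thus highest in effector memory, 1 of the libraries that define a high level. Dendritic cell markers went the other way, at 439, 349 and 302 CPM. The part of RNA from other cells in the levels of the 40 genes was not tested.

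The 40 genes were mostly of low abundance. Their median levels were 11.5, 3.31 and 13.5 CPM, against 49.9, 52.2 and 47.4 CPM over all 8548 genes. In central memory they had between 16 and 3403 counts, and 25 of them lay under 5 CPM there. Of the 40 genes, 27 were under 20 CPM in both other libraries, and 6 reached 50 CPM in both. The smaller of the 2 folds over central memory had a median of 2.58. It was at least 3 for 11 genes, at least 4 for 6 and at least 10 for Acvrl1 and Lipo3. Both counting intervals excluded a ratio of 1 for all 40 genes, and both lay wholly above 2 for 25. Among all 8548 genes, naive was at least 2-fold above central memory for 276 (3.23%) and effector memory was for 681 (7.97%). The 40 genes are 0.468% of the 8548. At that share, a count of 0 or 1 in any of the short gene lists below is a description of these genes and shows nothing particular to the list.

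**Figure D1:**
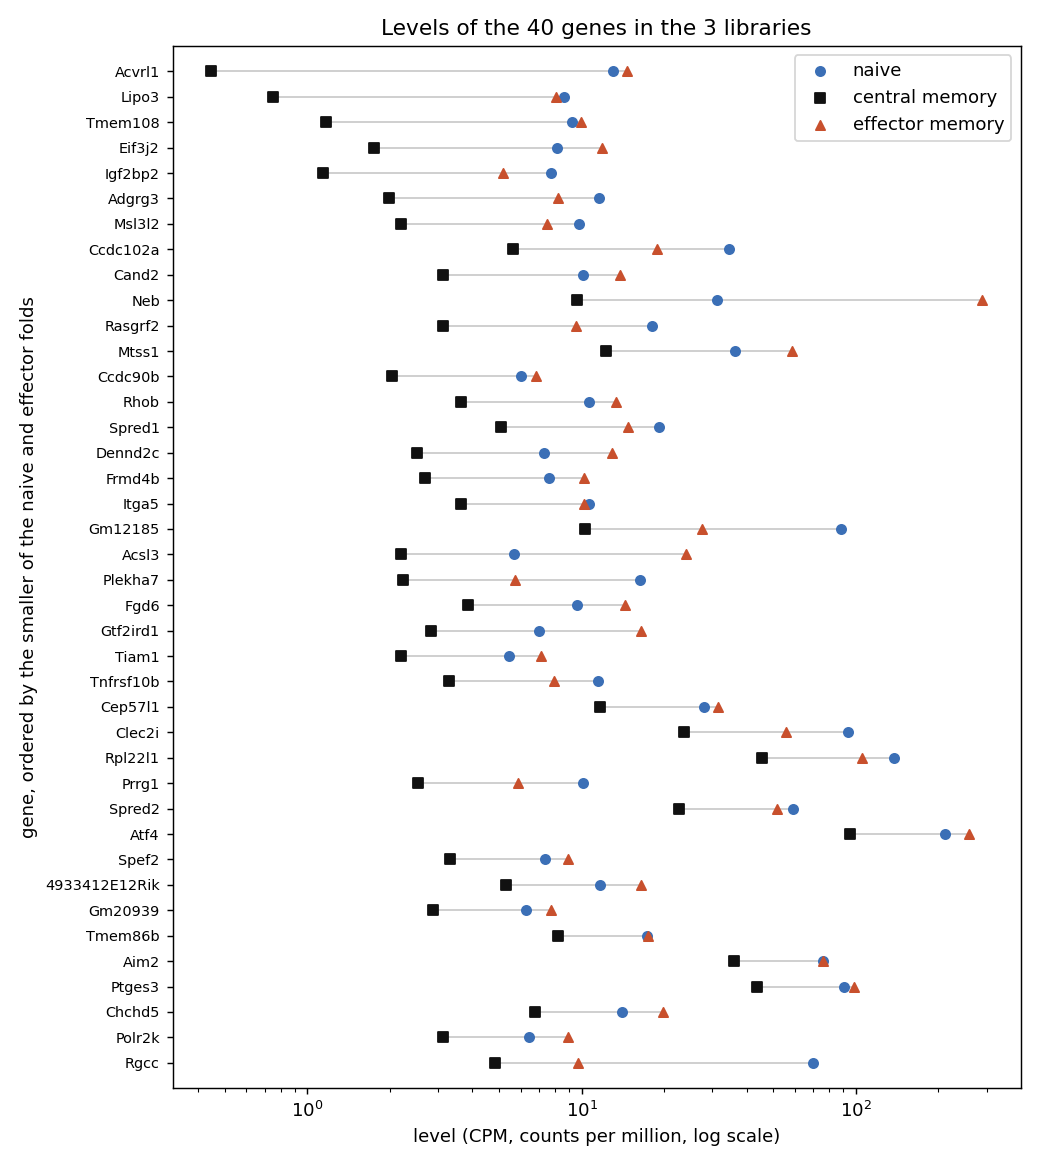
Level of each of the 40 genes (rows) in CPM on a log axis, in naive (circles), central memory (squares) and effector memory (triangles), 1 library each; grey lines join the central memory level to the highest. Rows are ordered by the smaller of the 2 folds over central memory, from Acvrl1 (29.1) down to Rgcc (2.02), and the naive and effector memory points lie within 2-fold of each other for 34 genes.

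Promoter sequence was looked up for the 40 genes in RefSeq on GRCm38.p6, and 32 of them matched by symbol. The 100 bases directly upstream of a start are shown for 4 genes that differ in how they behave: Gm12185 and Rgcc are much higher in naive than in effector memory, Rasgrf2 is moderately so, and Lipo3 is nearly equal in both. Each runs 5′ to 3′ on the strand of the gene, which is the minus strand for all 4, and capitals mark matches to the motifs named below.
Gm12185 (chr11:48927183-48927282): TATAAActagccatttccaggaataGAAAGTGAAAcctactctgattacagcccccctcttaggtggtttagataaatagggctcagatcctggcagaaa
Rgcc (chr14:79301636-79301735): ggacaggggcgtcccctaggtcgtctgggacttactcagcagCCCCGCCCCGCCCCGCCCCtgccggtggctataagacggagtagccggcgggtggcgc
Rasgrf2 (chr13:92131829-92131928): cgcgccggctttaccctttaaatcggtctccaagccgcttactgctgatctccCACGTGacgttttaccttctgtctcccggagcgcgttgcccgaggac
Lipo3 (chr19:33590312-33590411): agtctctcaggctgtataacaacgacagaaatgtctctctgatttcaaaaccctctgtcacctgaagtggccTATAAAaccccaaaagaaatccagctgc
In Gm12185 the capitals are a TATA box (TATAAA) and an interferon-stimulated response element (ISRE, searched on both strands, here on the opposite one). In Rgcc they are 3 overlapping matches to the GC-rich KLF/SP motif (GGGGCGGGG, as its reverse complement), in Rasgrf2 an E-box (CACGTG) and in Lipo3 a TATA box.

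No searched motif was common to the 40 genes. The whole windows were searched on both strands, from 250 bases before to 50 after each start. KLF/SP was found in 6 of the 32 genes (18.8%), against 12.9% of 27025 genes with a promoter in the table and 25.7% of those among the 8548. The TATA box was found in 5 of 32 (15.6%; 15.7% of all genes, 7.51% among the 8548). AP-1 (TGANTCA) was found in 2, Frmd4b and Tiam1, and the E-box in 2, Rasgrf2 and Tmem108, where all genes gave 8.97% and 8.09% and those among the 8548 gave 5.16% and 12.7%. ISRE was found in Gm12185 alone and the ETS motif (CCGGAAGT) in Chchd5 alone, against 3.99% and 4.31% of all genes and 3.98% and 11.5% among the 8548. The motifs CRE (TGACGTCA, 2.03% of all genes and 3.98% among the 8548), NF-kB (1.89% and 1.87%) and the serum response element core (0.218% and 0.146%) were found in 0 of the 32. A match is a description of letters only, and motifs can overlap.

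The receptors and surface proteins hold the gene with the widest gap. Acvrl1 encodes ALK1, a type I receptor of the TGF-beta superfamily that binds BMP9 and BMP10 and is best known from endothelial cells (ENSMUSG00000000530.16, chromosome 15, 101128522 to 101145336, GRCm38). It had 349, 16 and 483 counts, which are 12.99, 0.446 and 14.6 CPM. Naive was 29.1-fold above central memory (interval 17.7 to 51.5) and effector memory 32.7-fold (interval 19.9 to 57.7). Naive and effector memory were nearly level, with an interval of their ratio from 0.978 to 1.29.

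Eng and Bmpr2, which encode receptors that act with ALK1, had other orders. Eng, the coreceptor endoglin, stood at 36.1, 12.3 and 8.37 CPM in naive, central memory and effector memory, and the type II receptor Bmpr2 at 6.25, 10.1 and 7.74 CPM. Of 21 genes in a list of the ALK1 and BMP pathway, 8 reached 5 CPM in both naive and effector memory, and Acvrl1 alone of these was lowest in central memory. That list was drawn up once Acvrl1 was known to be a member. Id1, a transcriptional regulator induced by BMP receptors, was too low for the rule at 32, 0 and 14 counts. Against a floor of 3 counts in central memory it was 14.2-fold higher in naive and 5.06-fold higher in effector memory. Of 12 TGF-beta pathway genes at 5 CPM in both libraries, 0 were lowest in central memory. Smad7, an inhibitory SMAD, stood at 224, 69.7 and 30.7 CPM, lower at each step of the series. The 13 stromal and endothelial markers summed to 159, 172 and 53.6 CPM, and 1 of them reached 5 CPM in naive and effector memory. Among endothelial markers, Cdh5 had 2, 0 and 0 counts and Kdr had 0 in every library. The part of RNA from other cells in the level of Acvrl1 was not tested.

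Tmem108, a transmembrane protein (ENSMUSG00000042757.16, chromosome 9, 103482947 to 103761837), stood at 9.26, 1.17 and 9.94 CPM. It was 7.91-fold (interval 5.68 to 11.2) and 8.49-fold (interval 6.14 to 12.0) above central memory, the third largest gap of the 40. Adgrg3, an adhesion G protein-coupled receptor also called GPR97, had 11.6, 1.98 and 8.19 CPM. Its neighbour and relative Adgrg5 was far more abundant, at 419, 84.6 and 113 CPM. Adgrg5 was also lowest in central memory, with naive 4.95-fold above it. Effector memory was only 1.33-fold above (interval 1.27 to 1.40), short of the rule.

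Itga5 is the alpha chain of the fibronectin receptor, which pairs with the integrin beta 1 chain (ENSMUSG00000000555.8, chromosome 15, 103344286 to 103366763). It stood at 10.7, 3.63 and 10.2 CPM, 2.94-fold (interval 2.39 to 3.65) and 2.82-fold (interval 2.29 to 3.48) above central memory. The interval of effector memory over naive included 1. It was the only one of 11 integrin genes at 5 CPM in both libraries with this pattern. Itgav, another alpha chain, was higher at each step of the series at 28.6, 60.7 and 115 CPM, and Itga4 lower at each step at 494, 348 and 88.9 CPM.

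Tnfrsf10b, the mouse receptor for the death ligand TRAIL, stood at 11.5, 3.29 and 7.92 CPM. It was the only one of 12 measured TNF superfamily genes, and the only one of 12 p53 target genes, that was lowest in central memory by the rule. Fas, the other well-known death receptor, had 19.0, 8.56 and 8.46 CPM, with both memory libraries level. Clec2i, a C-type lectin of the NK gene complex, stood at 93.8, 23.7 and 55.7 CPM, and its relative Clec2d was highest in central memory at 57.2, 87.3 and 32.1 CPM. Prrg1, a membrane protein with a Gla domain, had 10.1, 2.54 and 5.86 CPM. Its relative Prrg4 stood at 6.03, 23.9 and 30.4 CPM, lowest in naive.

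**Figure D2:**
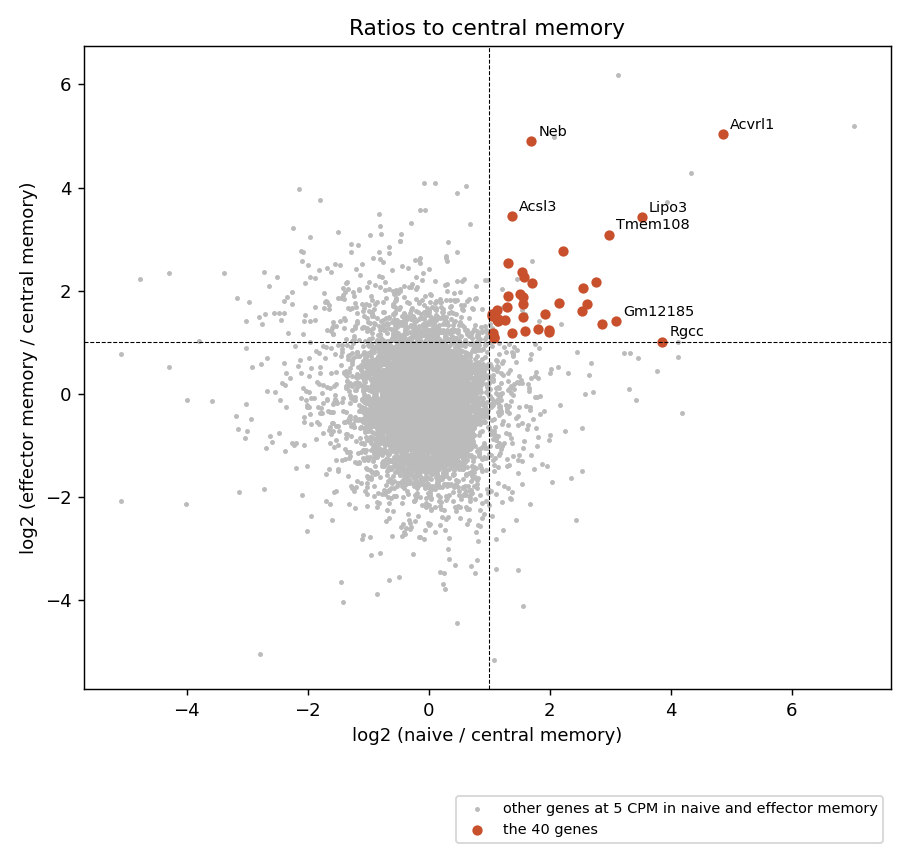
Log2 ratio of naive to central memory (x) against log2 ratio of effector memory to central memory (y) for the 8548 genes at 5 CPM in naive and effector memory; dashed lines mark 2-fold, red points are the 40 genes and the grey points beyond both lines are the 19 left out by name. Both axes share the central memory library. Acvrl1 lies far out on both axes, Neb far out for effector memory and Rgcc for naive.

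Regulators of Ras and other small GTPases form the group with most members of related function. These small switches are turned on by guanine nucleotide exchange factors and carry signals from the T cell receptor and adhesion receptors to MAP kinases and to the cytoskeleton. The SPRED proteins inhibit Ras and MAP kinase signalling. Spred1 (ENSMUSG00000027351.14, chromosome 2, 117121374 to 117182279) had 515, 182 and 488 counts, or 19.2, 5.08 and 14.7 CPM. It was 3.77-fold (interval 3.18 to 4.49) and 2.90-fold (interval 2.45 to 3.46) above central memory.

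Spred2 (ENSMUSG00000045671.17, chromosome 11, 19924375 to 20024026) was more deeply counted, with 1589, 813 and 1703 counts, or 59.1, 22.7 and 51.5 CPM. Its folds over central memory were 2.61 (interval 2.39 to 2.84) and 2.27 (interval 2.09 to 2.47). Both SPRED genes were thus lowest in central memory and a little higher in naive than in effector memory. The third SPRED gene, Spred3, had 8, 8 and 236 counts and was not a member. Rasgrf2, an exchange factor for Ras and Rac, stood at 18.05, 3.12 and 9.55 CPM, 5.78-fold (interval 4.69 to 7.16) and 3.06-fold (interval 2.46 to 3.83) above central memory.

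In a list of 33 regulators of Ras and MAP kinase signalling, drawn up once these members were known, 25 reached 5 CPM in both libraries and 3 were lowest in central memory by the rule. These are Spred1, Spred2 and Rasgrf2. The share over all 8548 genes was 0.468%, but the list was drawn up with these members known, so nothing is read from the count. Over the 25 genes the median log2 ratio of naive to central memory was 0.12 and of effector memory to central memory 0.05. The medians over all 8548 genes were -0.06 and -0.16. A further 2 genes of the list lay close to the threshold. Nf1, which encodes neurofibromin, the Ras GTPase-activating protein that SPRED proteins bring to the membrane, stood at 18.6, 9.76 and 20.3 CPM, 1.91-fold and 2.08-fold above central memory. Dusp6, a phosphatase that inactivates MAP kinases, stood at 45.02, 24.6 and 77.1 CPM, 1.83-fold and 3.14-fold above. The Sprouty genes, relatives of the SPRED genes, did not follow: Spry1 had 24, 123 and 172 counts and Spry2 had 4, 348 and 348. The kinase gene Braf (82.1, 79.1 and 62.02 CPM) was not lowest in central memory by the rule either.

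Rhob, a small GTPase gene that is also an immediate early gene, stood at 10.6, 3.63 and 13.3 CPM. It was the only one of 32 immediate early genes at 5 CPM in both libraries with the pattern. Over these 32 the median log2 ratio of naive to central memory was 0.68 and of effector memory to central memory 0.39, against -0.06 and -0.16 over all 8548 genes. These ratios use the levels that the rule used and are descriptions only. Of 41 listed genes, 18 were at least 2-fold lower in central memory than naive and 7 higher (over all genes 5.60% and 10.4%). Against effector memory, 9 of 39 were lower and 11 higher (over all genes 14.1% and 13.9%). Rhoa, the abundant relative of Rhob, had 400.1, 297 and 445 CPM, the highest smaller fold, at 1.35, among the relatives at 5 CPM in naive and effector memory. Tiam1, an exchange factor for Rac, stood at 5.43, 2.20 and 7.10 CPM, and Fgd6, an exchange factor for Cdc42, at 9.60, 3.85 and 14.4 CPM. Dennd2c, an exchange factor for Rab GTPases, stood at 7.29, 2.51 and 12.9 CPM. These last genes all had their highest level in effector memory, unlike Spred1, Spred2 and Rasgrf2, which were highest in naive.

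Genes of the cytoskeleton and of cell junctions include the member with the highest effector memory level. Neb encodes nebulin, a giant actin-binding protein known from the thin filaments of skeletal muscle (ENSMUSG00000026950.17, chromosome 2, 52136647 to 52378474). It had 838, 346 and 9532 counts, or 31.2, 9.65 and 288 CPM. Naive was 3.23-fold above central memory (interval 2.85 to 3.67) and effector memory 29.8-fold (interval 26.8 to 33.3). Its relatives Nebl and Nrap had at most 88 counts in any library.

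Mtss1, a protein that links membrane curvature to actin, stood at 36.3, 12.2 and 58.5 CPM, 2.97-fold (interval 2.65 to 3.33) and 4.78-fold (interval 4.30 to 5.31) above central memory. Plekha7, a component of adherens junctions, was mainly a naive gene, at 16.3, 2.23 and 5.74 CPM. Its relative Plekha6 was also highest in naive but had no second high level, at 35.4, 3.77 and 1.99 CPM. Frmd4b, a FERM domain protein, had 7.59, 2.68 and 10.2 CPM, and Cep57l1, a centrosomal protein, 27.9, 11.7 and 31.5 CPM. Spef2, known from the sperm flagellum, stood at 7.37, 3.32 and 8.89 CPM. Of these 6 genes only Plekha7 was higher in naive than in effector memory.

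Genes of transcription and translation hold the most abundant member. Atf4 encodes the transcription factor of the integrated stress response, whose protein level is set largely by translation (ENSMUSG00000042406.8, chromosome 15, 80255184 to 80257541). It had 5663, 3403 and 8579 counts, or 211, 94.9 and 259 CPM. It was 2.22-fold (interval 2.13 to 2.32) and 2.73-fold (interval 2.62 to 2.84) above central memory. Per kilobase of exon sequence Atf4 was also the highest of the 40 genes in effector memory, at 109.96 CPM per kb, followed by Rpl22l1 at 53.03.

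Target genes of ATF4 were also measured. Of 25 targets, listed once Atf4 was known to be a member, 14 reached 5 CPM in both naive and effector memory and 0 were lowest in central memory by the rule, against 0.468% over all genes. The nearest to it was Ppp1r15a, a phosphatase subunit that reverses the integrated stress response, at 237, 23.6 and 41.1 CPM. It was lowest in central memory, 10.04-fold below naive and 1.74-fold below effector memory (interval 1.60 to 1.90). Compared with naive, with at least 5 CPM in either library, 1 of 18 was at least 2-fold lower in central memory and 4 were higher (over all genes 5.60% and 10.4%). Compared with effector memory, 10 of 21 were lower in central memory and 0 higher (over all genes 14.1% and 13.9%). Asns, asparagine synthetase, had 0.446, 14.8 and 107 CPM, and Trib3 1.60, 23.9 and 48.4 CPM. Ddit3, which encodes CHOP, was nearly flat at 13.5, 15.7 and 13.8 CPM.

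Rpl22l1 encodes a paralogue of the ribosomal protein RPL22 (ENSMUSG00000039221.10, chromosome 3, 28805436 to 28807424). It stood at 137, 45.5 and 105 CPM, 3.02-fold (interval 2.84 to 3.20) and 2.32-fold (interval 2.18 to 2.46) above central memory. Rpl22 itself was level in the 3 libraries at 282, 291 and 287 CPM. Of 88 ribosomal protein genes at 5 CPM in both libraries, Rpl22l1 alone had the pattern. Polr2k, a small subunit of RNA polymerase II, stood at 6.44, 3.12 and 8.89 CPM and was the only one of 11 such subunit genes with it. For the other 10 the ratio of naive to central memory ran from 0.650 (Polr2j) to 1.27 (Polr2h). Polr2k is one of the 3 genes closest to the threshold.

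Igf2bp2, an RNA-binding protein of the insulin-like growth factor 2 mRNA-binding family, stood at 7.74, 1.14 and 5.17 CPM, 6.77-fold (interval 4.82 to 9.70) and 4.52-fold (interval 3.20 to 6.52) above central memory. Its relative Igf2bp3 had 14, 25 and 248 counts. Gtf2ird1, a transcription factor related to TFII-I, had 6.99, 2.82 and 16.4 CPM. The related Gtf2i (516, 347 and 191 CPM) and Gtf2ird2 (37.8, 42.1 and 17.2 CPM) were lowest in effector memory instead. Msl3l2, a relative of the dosage compensation gene Msl3, stood at 9.82, 2.20 and 7.47 CPM, while Msl3 was lowest in naive at 40.8, 59.9 and 64.6 CPM.

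Eif3j2, a copy of the translation initiation factor gene Eif3j1, had 8.15, 1.76 and 11.9 CPM, with folds of 4.64 and 6.78. This value is uncertain, because 94.9% of the 31-base windows of its longest transcript also occur in transcripts of other genes, most of them in Eif3j1. Eif3j1 stood at 73.1, 60.9 and 95.8 CPM, 1.20-fold and 1.57-fold above central memory.

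Rgcc, a regulator of the cell cycle, stood at 69.99, 4.83 and 9.73 CPM (ENSMUSG00000022018.7, chromosome 14, 79288756 to 79301645). Naive was 14.5-fold above central memory (interval 12.4 to 17.0), and effector memory only 2.02-fold (interval 1.67 to 2.44), so it is the member nearest the threshold. Cand2, a regulator of cullin ubiquitin ligases, had 10.2, 3.12 and 13.8 CPM, while its abundant relative Cand1 was level at 164, 151 and 166 CPM. Ptges3, the HSP90 cochaperone p23, stood at 90.7, 43.4 and 98.7 CPM, with folds of 2.09 (interval 1.96 to 2.23) and 2.27 (interval 2.14 to 2.41). It was the only one of 10 HSP90 and cochaperone genes with the pattern. Hsp90aa1 stood at 362, 317 and 1133 CPM.

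The innate immunity members are Aim2 and Gm12185. Aim2 encodes a sensor of cytosolic DNA that assembles an inflammasome (ENSMUSG00000037860.15, chromosome 1, 173350879 to 173466040). It had 2040, 1289 and 2505 counts, or 75.9, 35.96 and 75.7 CPM, and was 2.11-fold above central memory in both comparisons (intervals 1.97 to 2.26 and 1.97 to 2.25). The ratio of effector memory to naive was 0.997 (interval 0.940 to 1.06). Its relatives Ifi203 (625, 404 and 86.2 CPM) and Ifi209 (393, 341 and 218 CPM) were lowest in effector memory. Another relative, Ifi204, was under 5 CPM and lowest in central memory, with 17, 0 and 51 counts. Against a floor of 3 counts it was 7.56-fold higher in naive and 18.4-fold higher in effector memory. The lower interval bounds were 5.50 and 14.4. Of the other inflammasome genes, Pycard (20.6, 24.7 and 16.6 CPM) was highest in central memory and Casp1 (4.69, 18.2 and 16.8 CPM) lowest in naive.

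Gm12185 (ENSMUSG00000048852.13, chromosome 11, 48904656 to 48992226) stood at 88.3, 10.3 and 27.5 CPM. The annotated span of this gene model overlaps Psme2b and the interferon-inducible GTPase gene Tgtp1, and the effect of the overlap on the counts was not tested. Gm12185 was 8.56-fold (interval 7.67 to 9.57) and 2.66-fold (interval 2.36 to 3.01) above central memory. Tgtp1 itself had 117, 54.06 and 58.2 CPM, with the memory libraries nearly level, and Ifi47 had 266, 275 and 110 CPM. Of 53 interferon-stimulated genes at 5 CPM in naive and effector memory, 0 were lowest in central memory by the rule. Their median log2 ratio of naive to central memory was 0.55 and of effector memory to central memory -0.67. Genes left out by name or symbol family, and those under 5 CPM in naive or effector memory, could not count. Of the latter, Ube2l6 (4.80, 1.98 and 8.55 CPM) and Oas2 (112, 0.446 and 1.48 CPM) were more than 2-fold lowest in central memory. Between central and effector memory, 60 listed genes reached 5 CPM in either. Central memory was at least 2-fold lower for 4 and higher for 22 (over all genes 14.1% and 13.9%).

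Lipid and mitochondrial genes hold the member with the second widest gap. Lipo3, a member of the lipase family on chromosome 19 (ENSMUSG00000024766.15, 33555160 to 33761951), had 232, 27 and 267 counts, or 8.63, 0.753 and 8.07 CPM. It was 11.5-fold (interval 7.68 to 17.8) and 10.7-fold (interval 7.20 to 16.6) above central memory. Its relatives Lipo1, Lipo2 and Lipo4 had no count in any library.

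Acsl3, a long-chain acyl-CoA synthetase of the endoplasmic reticulum and lipid droplets, stood at 5.69, 2.20 and 24.1 CPM. Naive was 2.58-fold above central memory (interval 1.96 to 3.43) and effector memory 10.9-fold (interval 8.65 to 13.9). None of the 3 measured relatives shared this: Acsl1 stood at 7.93, 9.07 and 8.13 CPM, Acsl4 at 69.1, 68.6 and 180.4 CPM and Acsl5 at 113, 134 and 230 CPM. Tmem86b, which cleaves lysoplasmalogens, had 17.3, 8.17 and 17.5 CPM. Ccdc90b and Chchd5, proteins of mitochondria, stood at 5.99, 2.04 and 6.83 CPM and at 13.99, 6.78 and 19.9 CPM. The remaining members were Ccdc102a (34.5, 5.64 and 18.9 CPM) and the long noncoding RNAs 4933412E12Rik (11.6, 5.30 and 16.4 CPM) and Gm20939 (6.25, 2.87 and 7.77 CPM).

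The rule used the levels in naive and in effector memory, each against the same central memory level, so their ratio is also a description of chosen values and nothing is read from the shares over all genes given beside it. Effector memory lay at least 2-fold above naive with an interval excluding 1 for 3 genes (over all 8548 genes 13.2%) and at least 2-fold below for 3 (over all genes 15.7%). The other 34 genes, or 85%, were closer than that, against 71.1% over all genes. The median log2 ratio of effector memory to naive was 0.15 over the 40 genes and -0.11 over all 8548.

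The 3 genes higher in effector memory were Neb, 9.24-fold (interval 8.61 to 9.93), Acsl3, 4.23-fold (interval 3.55 to 5.06), and Gtf2ird1, 2.35-fold (interval 1.98 to 2.78). The 3 genes higher in naive were Rgcc, 7.19-fold (interval 6.39 to 8.12), Gm12185, 3.22-fold (interval 2.98 to 3.47), and Plekha7, 2.84-fold (interval 2.39 to 3.38). For 7 genes the interval of this ratio included 1, among them Acvrl1, Lipo3, Tmem108, Aim2 and Itga5. The smaller of the 2 folds over central memory was that of naive for 23 genes and that of effector memory for 17.

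**Figure D3:**
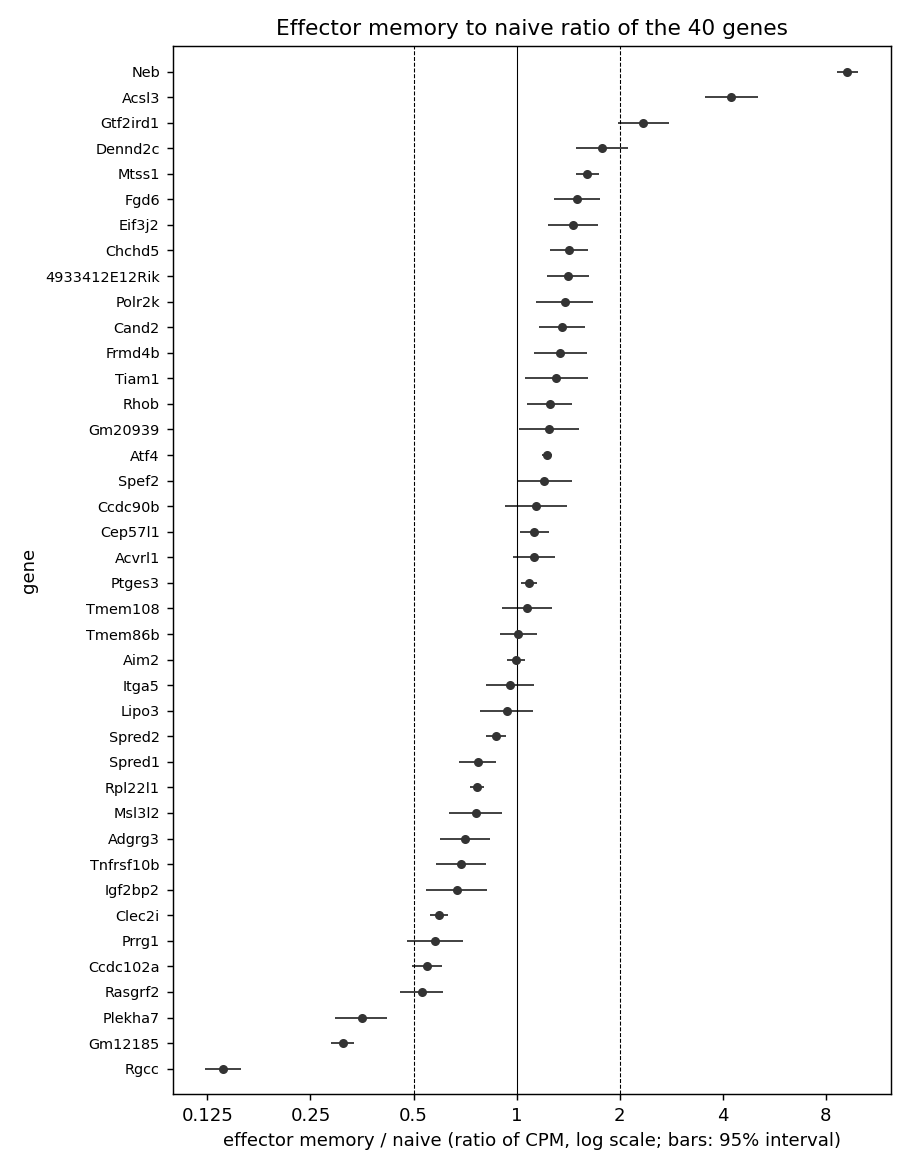
Ratio of effector memory to naive CPM for each of the 40 genes on a log axis, with its 95% exact counting interval as a bar; the solid line marks 1 and the dashed lines 0.5 and 2. The ratios run from 0.139 for Rgcc to 9.24 for Neb, and 34 of the 40 genes lie between the dashed lines.

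Relatives of the members were chosen by symbol for 31 of the 40 genes once the members were known. Of 65 relatives in the table, 30 reached 5 CPM in naive and effector memory, and 0 of these were lowest in central memory by the rule, against 0.468% over all 8548 genes, so this count shows nothing particular to the relatives. Their median ratio of naive to central memory was 1.12 and of effector memory to central memory 0.877. Central memory was at or above at least 1 of the other libraries for 22 of the 30. It was below both for the other 8, by a smaller fold of up to 1.35, Rhoa, Adgrg5 and Eif3j1 among them.

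**Figure D4:**
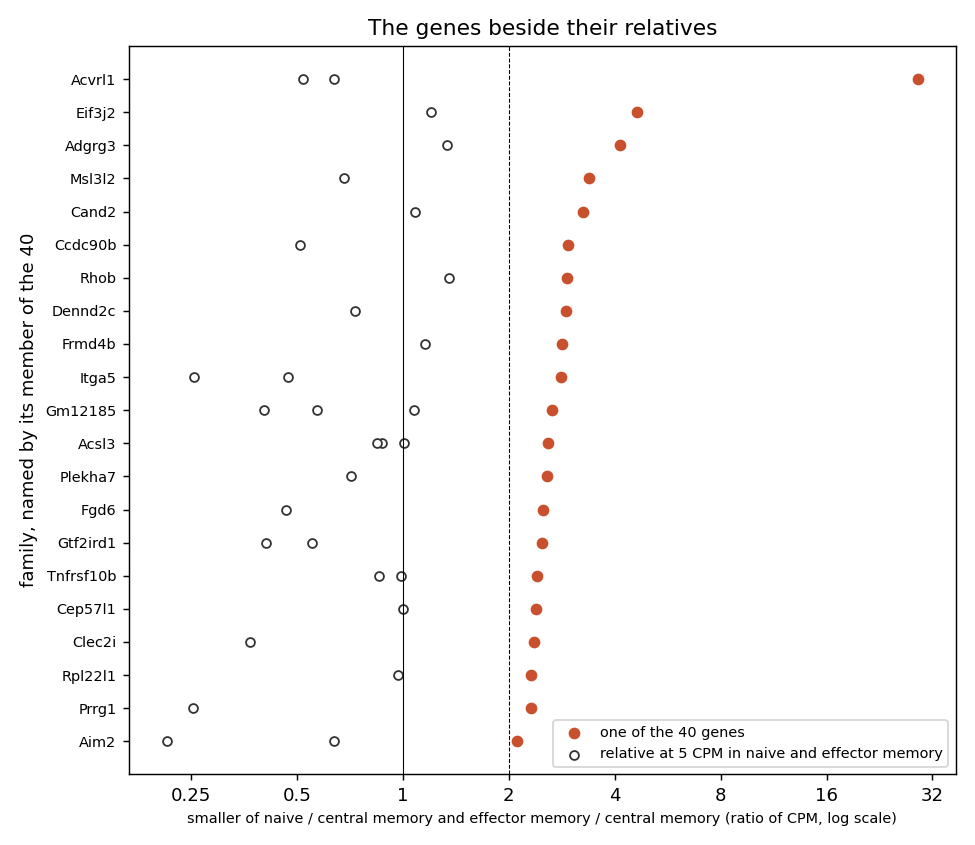
For 21 families, the smaller of the naive and effector memory folds over central memory (log axis) for the member of the 40 (filled) and for its 30 relatives at 5 CPM in naive and effector memory (open); the dashed line marks the 2-fold rule. All open points lie left of the dashed line, the highest being Rhoa at 1.35.

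All 40 genes matched GENCODE M21, and 38 were protein-coding. They lay on 19 chromosomes, with most on chromosome 15 (6 of 340 measured genes) and chromosome 10 (5 of 423). Only 1 pair, Adgrg3 and Ccdc102a on chromosome 8, lay within 100 kb of each other, 99594 bases apart. The nearest measured genes on either side of the members were 78 in number. Central memory was at least 1.5-fold below both other libraries for 1 of them (1.28%), and for 171 of the 8548. Members spanned longer stretches of genome, with a median of 40470 bases against 24175, while their longest transcripts were alike in length (3530 against 3488 bases) and GC content (49.3% against 49.2%).

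Sequence shared with other genes limits some of the counts. In 9 of the 40 genes (22.5%) at least 10% of the 31-base windows of the longest transcript occur in another gene, against 12.8% over the 8481 measured genes that matched the annotation. Besides Eif3j2 these are Lipo3 (33.6%), Polr2k (29.6%), Gm12185 (26.8%), Gm20939 (23.7%), Ptges3 (23.1%), Tnfrsf10b (15.7%), Rpl22l1 (13.5%) and Clec2i (12.4%). For Polr2k, Ptges3, Rpl22l1 and Tnfrsf10b the gene that shares most is a processed pseudogene. The sources used here do not say how reads with several matches were counted, and the part of shared reads in these levels was not tested. The other 31 genes, Acvrl1, Tmem108, Neb, Spred1, Spred2 and Atf4 among them, lay under 10%.

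Of 463 genes in 25 lists of T cell, stress, signalling and cell type genes, 232 reached 5 CPM in both libraries, and 2 of these, Rhob and Tnfrsf10b, were lowest in central memory. Over all 8548 genes 0.468% were members, so 2 of 232 is not fewer than the general share. Heat shock genes (0 of 16), NF-kB feedback and target genes (0 of 17), circadian clock genes (0 of 11), glucocorticoid response genes (0 of 11), Notch pathway genes (0 of 15), T cell identity genes (0 of 16) and naive and lymphoid homing genes (0 of 16) had no member, and at that share nothing is read from these counts. Solute carriers had 0 of 137 and Rab GTPases 0 of 38.

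At the threshold, the 3 members just inside were Rgcc (2.02-fold), Polr2k (2.06-fold) and Chchd5 (2.06-fold) by the smaller fold. The 3 genes just outside were Tet1 (1.99-fold; 45.8, 2.62 and 5.23 CPM in naive, central memory and effector memory), Tubb2a (1.98-fold; 6.47, 2.90 and 5.74 CPM) and Gpsm2 (1.96-fold; 21.8, 11.1 and 51.3 CPM). Scaling by trimmed mean of M values (TMM) factors put Polr2k and Chchd5 at 1.99-fold, below the rule.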

How the data were processed

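The authors deposited a single table of raw counts by gene symbol; its 3 columns TN, TCM and TEM were matched to the sample titles by abbreviation. Per the submitters' processing notes, the tools were HISAT2 2.0.5, featureCounts 1.5.0-p3 and CASAVA, on build mm10. The annotation, the strand setting and the treatment of multi-mapping reads are unknown here. Counts were divided by column totals to give CPM. The rule leaves out 6 genes by name and 7 symbol families, and sets 0 counts to 3. Each ratio has a 95% exact (Clopper-Pearson) counting interval. There is 1 library per group, so no test was made. Comparisons with naive or effector memory outside the 40 genes were called at 2-fold, 5 CPM in the higher library and an interval excluding 1. Members, lists and rules were chosen with earlier results of these data known. Relatives, member groups and 6 pathway lists were added once the members were known. The genes to name were the 25 members of largest smaller fold by its interval bound, members of a list, the 10 most abundant, the 5 highest and 5 lowest by effector memory to naive ratio, those at the threshold and neighbouring members; the others are given for completeness. Features are from GENCODE M21, where 98.7% of gene names matched. The rule was run on simulated data as a check of the code only, and nothing about the 40 genes is read from that run. Alternatives were TMM factors of edgeR 4.0.16, DESeq2 1.42.0 size factors, other totals, minimum levels, folds and floors. Work was done in Python 3.11.15 (pandas 2.3.3, SciPy 1.17.1, NumPy 2.4.6) and R 4.3.3.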

Additional observations from a re-analysis of the deposited data

How the results depend on the processing

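The number of genes lowest in central memory was 40. It was 42 with TMM factors, 53 with DESeq2 size factors and 44 with totals that leave out the 100 most abundant genes. All 40 genes were kept under these settings, except that TMM lost Chchd5 and Polr2k. Setting 0 counts to 1, or asking both intervals to exclude 1, also gave 40, but neither could change the number. No member had fewer than 16 counts in central memory, and both intervals already excluded 1 for all 40. DESeq2 size factors moved every log2 ratio of effector to central memory up by 0.12. The number depends on the limits of the rule. A minimum of 1 CPM gave 135 genes and 20 CPM gave 10, while 1.5-fold gave 148 and 4-fold gave 6. In the same order, members of the fixed lists numbered 7, 0, 15 and 0, against 2. Members at least 2-fold higher in effector memory than naive numbered 18, 1, 12 and 0, against 3, and those lower numbered 21, 1, 11 and 0, against 3. The median log2 ratio of effector memory to naive was 0.15; it reversed to -0.04 at 1 CPM and was 0.00 at 4-fold. The cause was not tested, beyond the change in genes that each limit makes. No paired analysis was possible because each group has 1 library and no test was made. Low counts limit the precision most for Acvrl1, which had 16 counts in central memory.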
